A study of Drosophila melanogaster with 19 samples.

Results

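The genes described here are the Cdc25 phosphatases string (stg) and twine (twe), the mitotic inhibitors tribbles (trbl), Z600 and Myt1, and their target kinase Cdk1 with its small partner Cks30A. They were chosen by name, as the pathway that acts on the cyclins removed in this experiment, and all 7 were found among the 17735 genes of the deposited table. Polyadenylated RNA of single Drosophila melanogaster embryos was sequenced. Arrested embryos carried the treatment label cyclin RNAi: double-stranded RNA against CycA, CycB and CycB3 had been injected at 3 points along the embryo to hold the nuclei in the interphase of cycle 12, and embryos were collected 15, 30, 50 and 70 minutes after the mitosis that precedes cycle 12 (C12-15min to C12-70min). Control embryos carried the label no injection and were taken in cycle 12 (C12), cycle 13 (C13), early cycle 14 (C14E) and late cycle 14 (C14L). All embryos carried a histone H2AvD-mRFP transgene to follow nuclei. Effects of the injection and of the cyclin loss cannot be told apart in this design, because no control was injected, and the times of arrest are not matched to the control stages. The study describes even its C12-70min embryos as far younger than control C14L.

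Each deposited value is the log2 of a condition's mean CPM (reads of a gene per 1000000 reads assigned to genes) plus 1. The means stand for 18 of the 19 labelled embryos, because the study left out 1 control C12 embryo. Control C13 and control C14E hold 3 embryos each and the other 6 conditions 2 each. The 8 arrested embryos had 39242409 to 52804462 assigned reads and the 10 control embryos 35957713 to 57998963. In the 6 conditions with 2 embryos, the whole reads of each embryo could be solved from the decimals of the mean. The embryo with more assigned reads is called embryo A and the other embryo B, and where several pairs of whole reads gave the same mean, the range of the solutions is stated. Values of control C13 and control C14E are the authors' means alone. A gene was called higher or lower by a fold change above 1.5 in mean CPM plus 1, without a test. Where adjusted p-values are given, they come from limma on the solved embryos, with 2 embryos per condition. The Benjamini-Hochberg adjustment ran over 5662 genes and 20 added rows for members with several solutions. The words "rose", "fell", "tested higher" and "tested lower" are kept for these tests. They give the direction in the condition named first, relative to the other condition, and not a course followed in the same embryos. The embryos of a condition are separate animals, but nothing in the labels says whether they came from separate matings or injection days.

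Entry into mitosis depends on Cdk1 bound to a mitotic cyclin. Myt1 and Wee1 place inhibitory phosphates on Cdk1, and the Cdc25 phosphatases String and Twine take them off. The first nuclear cycles of the fly embryo run on maternal String and Twine. At the mid-blastula transition both maternal supplies are lost, the cycle pauses in G2 of cycle 14, and later mitoses follow zygotic string expression in defined domains of cells. Tribbles promotes the destruction of Cdc25 proteins. Z600, also named frühstart, is a small zygotic protein that binds cyclins and inhibits Cdk1. Cks proteins bind the Cdk and assist its recognition of phosphorylated substrates.

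The cyclin mRNAs were low in the arrested embryos at 30 minutes and later, and only partly lower than in control C12 at 15 minutes. CycA was at 1799 CPM in the libraries labelled C12-15min and at 14.2, 13.4 and 28.8 CPM after 30, 50 and 70 minutes of arrest, against 2626 CPM in control C12. CycB was at 3723, 116, 36.7 and 75.6 CPM in the same order of times, against 4745 CPM in control C12. CycB3 was at 1053, 24.2, 20.6 and 31.1 CPM, against 1277 CPM in control C12. The 3 cyclins thus stood at 68.5%, 78.5% and 82.5% of control C12 in the libraries labelled C12-15min, and at 0.512% to 2.45% from 30 minutes on. Without injection, they stood at 77.7%, 75.7% and 82.4% of control C12 in control C13, and at 38.0%, 15.0% and 123% in control C14E. At 15 minutes, CycA, CycB and CycB3 ranked 87th, 342nd and 556th from the bottom among 5563 genes that reached 10 CPM in either condition. The deep depletion of the later times was not seen there. The single embryos of that time could not be solved for these genes, and results at 15 minutes are given for the libraries as labelled.

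**Figure D1:**
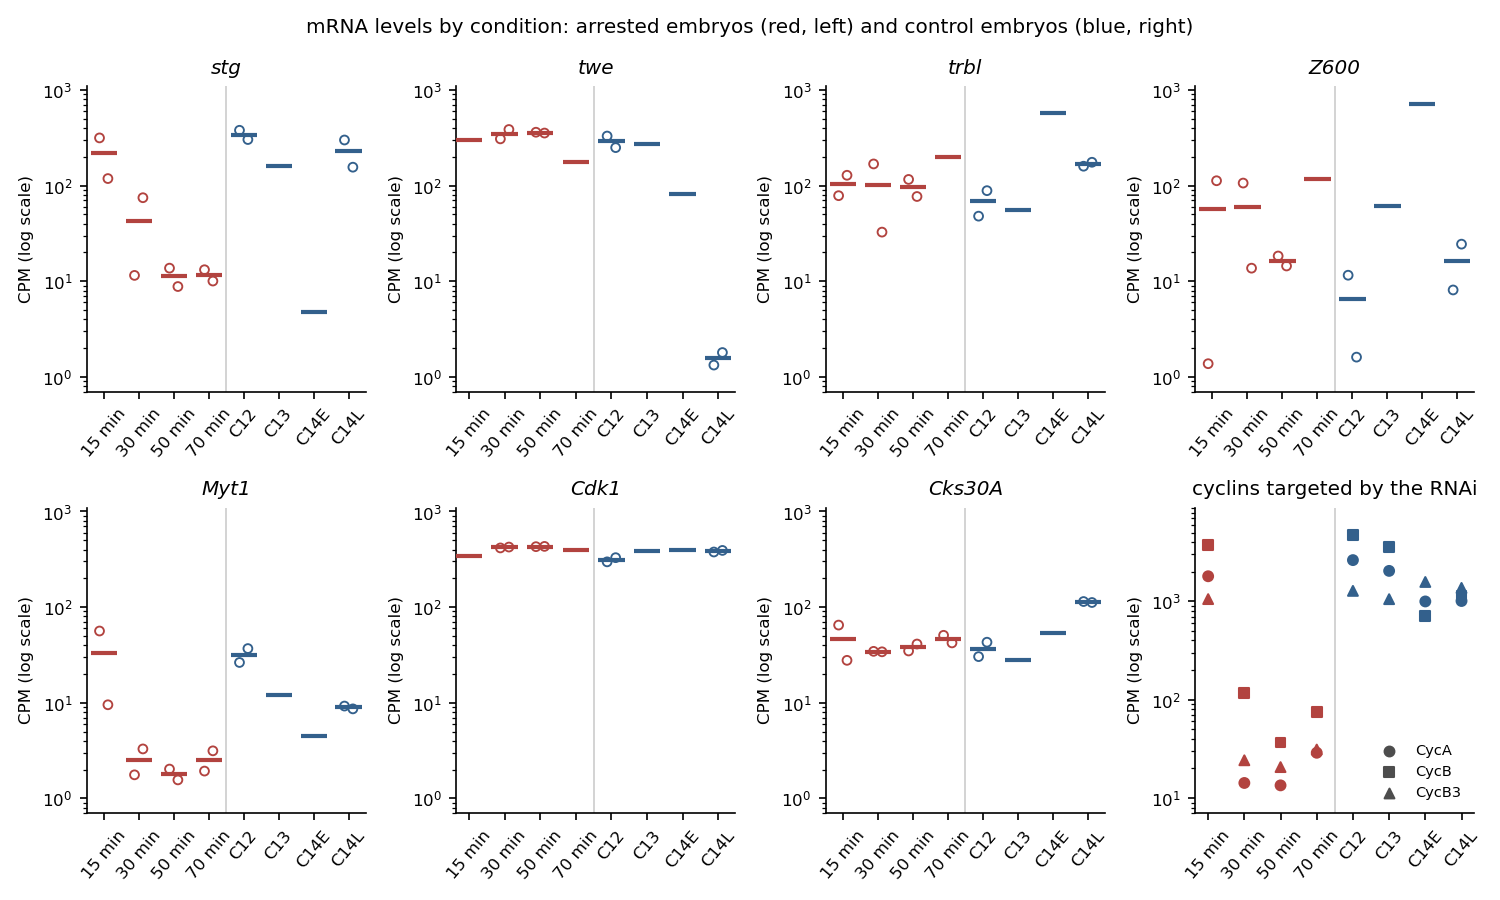
Level of each gene in CPM on a log axis in the 8 conditions, arrested embryos in red on the left and control embryos in blue on the right. Dashes are the authors' condition means and open circles single embryos where the reads had a single solution. The last panel shows the cyclins targeted by the RNA interference, which drop after 15 minutes. stg is down to 11.6 CPM at C12-70min, while twe remains at 175 CPM there, against 1.56 CPM in control C14L.

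The members were first counted over control C12, a reference that all these comparisons share. At C12-70min, 2 of the 7 members were higher (trbl and Z600), where 16.8% of all genes were, and 3 were lower (stg, twe and Myt1), where 18.6% were. The twe call ended at 2-fold and without control C12 embryo A (log2 difference -0.51). Without C12-70min embryo B, it ended in all but the lowest solution (-0.10 in the highest). Without control C12 embryo B, Cks30A was past the fold as well (0.60). In control C14E, trbl and Z600 were higher, where 11.7% of all genes were, and stg, twe and Myt1 were lower, where 16.6% were, and centring on the median of abundant genes added Cks30A (0.60). In control C14L, 3 were higher (trbl, Z600 and Cks30A), where 19.5% of all genes were, and 2 were lower (twe and Myt1), where 16% were. Over all genes this is 3451 higher and 2845 lower, which centring on the median of abundant genes turned into 4710 and 2359, with the same members called. The Z600 call in control C14L (1.19) ended without control C14L embryo B (0.26) and without control C12 embryo B (0.46), and stg passed the fold downward without control C14L embryo A (-1.12) or control C12 embryo B (-0.73). After 30 and after 50 minutes of arrest, Z600 was the 1 member called higher, where 6.99% and 11.5% of all genes were, and stg and Myt1 were the 2 called lower, where 16.1% and 17.2% were. Without control C12 embryo B, Z600 was no longer past the fold after 50 minutes (0.47) and trbl was (0.99). trbl was past it there without C12-50min embryo B as well, with 116 CPM in embryo A. At 30 minutes, trbl was past the fold without control C12 embryo B (1.05) or C12-30min embryo B (1.29), and on the lower side without C12-30min embryo A (-1.04). In the libraries labelled C12-15min, trbl and Z600 were called higher, where 2.76% of all genes were, and stg was called lower, where 0.75% were. Each of these 3 calls ended under an alternative: trbl (0.59) was at 0.58 with centring, 0.22 without control C12 embryo A and 0.20 without C12-15min embryo B, and without that last embryo stg was at -0.11 and Z600 at -1.68. stg was also inside the fold, at -0.48, without control C12 embryo A. Other members passed the fold in these libraries only with an embryo left out. Myt1 was at -1.63 without C12-15min embryo A and at 0.81 without embryo B. twe reached 0.73 and -1.27 in this way, each in only some solutions. Cks30A passed upward without C12-15min embryo B or control C12 embryo B. In control C13, Z600 was called higher, where 4.14% of all genes were, and stg and Myt1 lower, where 11% were. The median of the 7 members over control C12 was 0.33 on the log2 scale after 70 minutes of arrest and 0.29 in control C14L, where the medians of all genes that reached 10 CPM in either condition were -0.63 and -0.19. The -0.63 is itself past the fold (0.585 on the log2 scale). The shares over all genes include many near 0 CPM that cannot pass downward, so they understate how often expressed genes were lower.

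**Figure D2:**
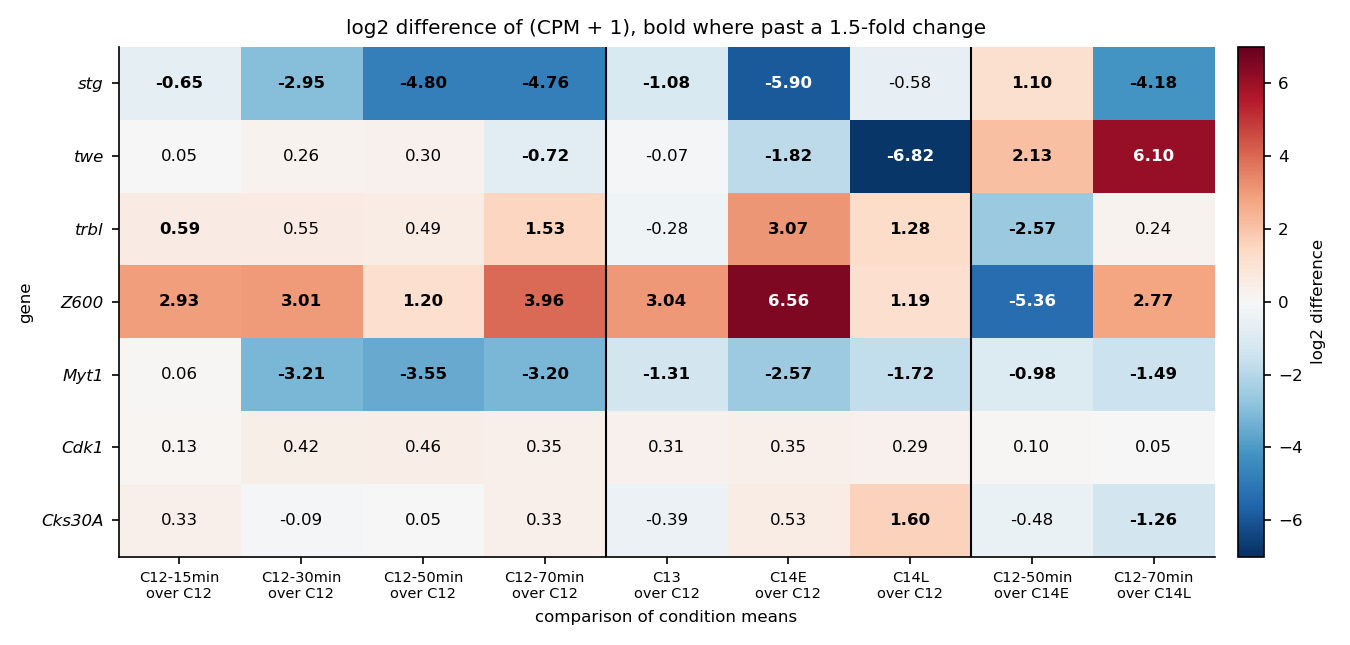
log2 difference in CPM plus 1 between condition means for the 7 genes (rows) in 9 comparisons (columns), bold where past a 1.5-fold change, red where higher and blue where lower in the condition named first. The blocks show arrested over control C12, later controls over control C12, and arrested over cycle 14 controls. twe reads -6.82 in control C14L over C12 and 6.10 in C12-70min over C14L.

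string was the member that fell farthest during the arrest. stg (FBgn0003525, minus strand of BDGP6 chromosome 3R at 29251826 to 29255800) is listed at 217 CPM in the libraries labelled C12-15min and at 43.1, 11.3 and 11.6 CPM after 30, 50 and 70 minutes of arrest. The control means are 341 CPM (C12), 161 CPM (C13), 4.74 CPM (C14E) and 228 CPM (C14L). Every arrested mean was therefore below the control C12 mean, and the control course dipped in C14E and was high again in C14L. In embryos A and B, stg had 13.2 and 10.1 CPM at C12-70min, against 379 and 303 CPM in control C12. The mean was 27.1-fold lower at C12-70min than in control C12, and stg fell by 4.76 on the log2 scale (SE 0.76) with an adjusted p of 0.00158 in limma.

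The fall of stg was already past the test at 30 minutes, with an adjusted p of 0.0225, and again at 50 minutes, with 0.00361. Embryos A and B had 11.5 and 74.7 CPM after 30 minutes, and 13.7 and 8.81 CPM after 50 minutes of arrest, so the 30-minute embryos differed widely while the later embryos lay close to each other. Control C14L had 299.9 and 156 CPM, and its difference from control C12 did not pass the test (log2 difference -0.65, SE 0.76, adjusted p = 0.505). Directly compared, C12-70min was 18.1-fold lower in mean than control C14L, and stg tested lower there by 4.12 on the log2 scale (adjusted p = 0.00318). Against control C14E, C12-50min and C12-70min were 2.14-fold and 2.20-fold higher in mean. In the order of its 8 means, stg stood highest in control C12, followed by C14L, the libraries labelled C12-15min and C13, and these neighbors differed by less than the pooled SD between embryos of 0.92 on the log2 scale.

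twine, the other Cdc25 phosphatase, which the egg also needs for meiosis, stayed near its control C12 mean through 50 minutes of arrest. At C12-70min its mean stood at 60.5% of control C12. twe (FBgn0002673, minus strand of chromosome 2L at 16259414 to 16261877) is listed at 299 CPM in the libraries labelled C12-15min and at 347, 358 and 175 CPM after 30, 50 and 70 minutes of arrest. The control means are 290 CPM (C12), 275 CPM (C13), 81.1 CPM (C14E) and 1.56 CPM (C14L). The late cycle 14 control thus had almost no twe left, and no arrested mean came near it. In single embryos, twe at C12-70min was between 191.9 and 271 CPM in embryo A and between 79.8 and 158 CPM in embryo B over 3 solutions, against 1.33 and 1.80 CPM in control C14L. The C12-70min mean was 68.7-fold higher than that of control C14L, a log2 difference of 5.86 to 6.10 over the solutions (adjusted p between 2.44e-06 and 0.000311). Because control C14L is near 0, the fold depends on the pseudocount of 1, and the log2 difference of the means was 6.72 with a pseudocount of 0.1 and 6.81 with 0.001. Among 5912 genes that reached 10 CPM in either condition, this was the 9th largest difference upward.

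Over control C12, twe was 1.65-fold lower in mean at C12-70min, and its adjusted p lay between 0.0222 and 0.255 over the solutions, so the call depends on which solution holds. Embryos A and B of control C12 had 329.8 and 249.6 CPM, close to the 308 and 386 CPM after 30 minutes and the 362 and 354 CPM after 50 minutes of arrest. Control C14L was 113-fold lower than control C12, a log2 difference of -6.82, or -7.44 and -7.53 with these pseudocounts (adjusted p between 4.48e-07 and 4.49e-05). From 50 to 70 minutes of arrest, the twe mean was 2.04-fold lower at the later time, with an adjusted p between 0.0433 and 0.329. twe shares 98 of its 2379 exonic bases with EndoGI on the other strand, and EndoGI is listed at 7.64 to 22.1 CPM.

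Per kb of exon, the makeup of the Cdc25 mRNA differed between arrested and late control embryos. stg made up 36.0%, 8.80%, 2.38% and 4.90% of the summed stg and twe level per kb at 15, 30, 50 and 70 minutes of arrest. It made up 47.8%, 31.3%, 4.34% and 99.1% in control C12, C13, C14E and C14L. In single embryos, the share of stg was between 3.65% and 8.91% at C12-70min, against 99.4% and 98.5% in control C14L. The summed level was nearly the same in these conditions, 77.4 CPM per kb at C12-70min and 75.0 CPM per kb in control C14L, so the arrested embryos had mostly twine where the late controls had mostly string. Control C14L was older than the C12-70min embryos. In control C14E, the share of stg (4.34%) was close to that at C12-70min (4.90%), with a summed level of 35.6 CPM per kb. The part of age in this contrast was not tested. Each level is a share of the embryo's own polyadenylated reads, so fewer expressing cells and less RNA per cell cannot be told apart.

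**Figure D3:**
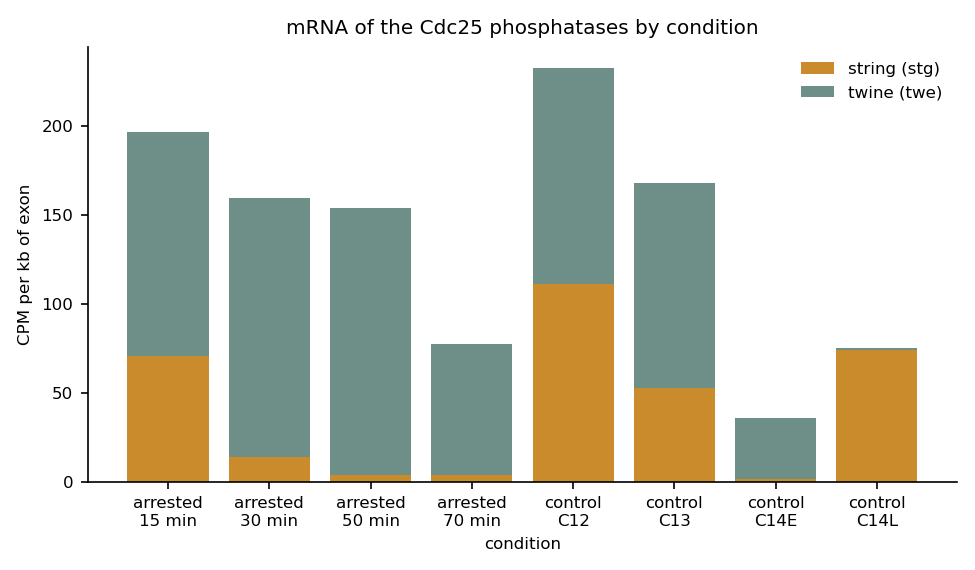
Summed level of stg and twe in CPM per kb of exon in the 8 conditions, arrested embryos on the left and controls on the right, bars stacked from 0. Bars are the authors' condition means. The C12-70min bar (77.4) and the control C14L bar (75.0) have nearly the same height, with 4.90% and 99.1% of string. The control C14E bar has 4.34% of string.

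tribbles, which targets Cdc25 proteins for destruction, was moderately higher at the end of the arrest. trbl (FBgn0028978, minus strand of chromosome 3L at 20396288 to 20401609) is listed at 103, 101, 96.5 and 198 CPM at 15, 30, 50 and 70 minutes of arrest, and at 68.3, 55.9, 579 and 167 CPM in control C12, C13, C14E and C14L. The C12-70min mean was 2.88-fold higher than control C12. Its embryos had 147 to 186 CPM (A) and 210 to 249.8 CPM (B), against 47.9 and 88.6 CPM in control C12. The difference did not pass the test (log2 1.54 to 1.59, adjusted p between 0.0588 and 0.0727). C12-70min was close to control C14L, with embryos of 160 and 175 CPM there and an adjusted p between 0.773 and 0.823, and it was 2.91-fold below the mean of control C14E. After 30 minutes the embryos stood apart, with 169 CPM in A and 32.7 CPM in B, and after 50 minutes they had 116 and 76.9 CPM, overlapping control C12. In control embryos, trbl peaked in C14E, where its mean was 8.38-fold higher than in C12. In the order of the 8 means, only the step between control C14E and the next condition, C12-70min, exceeded the pooled SD between embryos of 0.84 on the log2 scale.

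Z600, the cyclin-binding inhibitor, had the same peak in early cycle 14 and the widest spread between embryos. Z600 (FBgn0004052, plus strand of chromosome 3L at 15509061 to 15509513) is listed at 56.9, 60.0, 16.4 and 117 CPM at 15, 30, 50 and 70 minutes of arrest, and at 6.59, 61.4, 714 and 16.3 CPM in control C12, C13, C14E and C14L. Its control C14E mean was 94.1-fold higher than that of C12, and the C14L mean 41.4-fold lower than that of C14E. No arrested mean reached the C14E level: the log2 difference was -5.36 after 50 minutes and -2.60 after 70 minutes of arrest. At C12-70min, embryo A had 36.9 to 76.2 CPM and embryo B 158 to 197 CPM, against 11.6 and 1.61 CPM in control C12 and 8.11 and 24.4 CPM in control C14L. In control C14L over control C12, Z600 had an adjusted p between 0.496 and 0.516. Over control C12 the mean was 15.6-fold higher, and the adjusted p lay between 0.0492 and 0.0764 over the solutions.

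Without the libraries labelled C12-15min, limma gave an adjusted p between 0.00534 and 0.0138 for Z600 at C12-70min over control C12. Over control C14L, the C12-70min mean was 6.84-fold higher, with an adjusted p between 0.172 and 0.246 with these libraries and between 0.0364 and 0.0846 without them. Embryos A and B had 1.38 and 112 CPM in the libraries labelled C12-15min, 106 and 13.7 CPM after 30 minutes, and 18.4 and 14.5 CPM after 50 minutes of arrest. The mean of the libraries labelled C12-15min therefore rests on embryo B, and embryo A alone was below the control C12 mean. The gene is short, with 453 exonic bases, of which 69 are shared on the same strand with gdl and gdl-ORF39. gdl is listed at 0.699 to 2.20 CPM and gdl-ORF39 at 0 in every condition. As for trbl, only the step from control C14E to C12-70min in the order of the means exceeded the pooled SD of Z600, 2.16 on the log2 scale.

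Myt1, the membrane-bound kinase that opposes Cdc25, was lower in every arrested condition after 15 minutes. Myt1 (FBgn0040298, minus strand of chromosome 3L at 5777476 to 5779591) is listed at 32.9, 2.53, 1.79 and 2.54 CPM at 15, 30, 50 and 70 minutes of arrest, and at 31.6, 12.2, 4.50 and 8.94 CPM in control C12, C13, C14E and C14L. Embryos A and B had 1.76 and 3.29 CPM after 30 minutes, 2.03 and 1.56 CPM after 50 minutes, and 1.93 and 3.14 CPM after 70 minutes of arrest, against 26.4 and 36.9 CPM in control C12. In limma, Myt1 fell over control C12, with log2 differences of -3.22, -3.53 and -3.21 (SE 0.71 each) and adjusted p of 0.0225, 0.00613 and 0.00506. Late cycle 14 controls had 9.24 and 8.63 CPM. The C12-70min embryos were below these, 2.81-fold in mean, with an adjusted p of 0.105 with the libraries labelled C12-15min in the fit and 0.0104 without them. For control C14L over control C12, the adjusted p was 0.0694 with these libraries and 0.00482 without them. The 2 embryos at 15 minutes had 56.3 and 9.53 CPM, on either side of both control C12 embryos.

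Cdk1, the kinase on which the other members act, varied least. Cdk1 (FBgn0004106, minus strand of chromosome 2L at 10384739 to 10386262) is listed at 342, 420, 430 and 398 CPM at 15, 30, 50 and 70 minutes of arrest, and at 313, 389, 400 and 384 CPM in control C12, C13, C14E and C14L. Its highest and lowest conditions differed by 0.46 on the log2 scale, and 1.32% of the 6437 genes that reached 10 CPM in any condition had a smaller range. No comparison of the means passed the fold. Over control C12, Cdk1 was at 0.58 in control C14L once centred on the median of abundant genes (0.29 as deposited), and at 0.63 at C12-70min in the highest solution without embryo A. Embryos A and B had 416 and 425 CPM after 30 minutes, and 429 and 431 CPM after 50 minutes of arrest, against 297 and 329 CPM in control C12. Over control C12, its adjusted p lay between 0.0906 and 0.193 at C12-50min and between 0.164 and 0.349 at C12-70min. Without the libraries labelled C12-15min, the C12-50min value lay between 0.026 and 0.093.

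Cks30A, the Cks protein of the female germ line and early embryo, had its highest mean in control C14L, above every arrested mean. Cks30A (FBgn0010314, plus strand of chromosome 2L at 9330763 to 9331981) is listed at 46.3, 34.3, 38.0 and 46.5 CPM at 15, 30, 50 and 70 minutes of arrest, and at 36.7, 27.8, 53.3 and 113 CPM in control C12, C13, C14E and C14L. Embryos A and B had 50.7 and 42.3 CPM at C12-70min, against 114 and 112 CPM in control C14L and 30.4 and 43.0 CPM in control C12. Cks30A rose in control C14L over control C12 by 1.62 on the log2 scale (SE 0.36, adjusted p = 0.00447). At C12-70min it tested lower than in control C14L by 1.27 (adjusted p = 0.0186), while its difference from control C12 was 0.35 (adjusted p = 0.422). The C12-30min embryos, with 34.5 and 34.1 CPM, and the C12-50min embryos, with 34.8 and 41.1 CPM, lay within the control C12 pair. The C12-70min mean was close to that of control C14E (log2 difference -0.19). This step was smaller than the pooled SD between embryos of 0.39 on the log2 scale.

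In limma at an adjusted p of 0.05, stg and Myt1 were thus the 2 of 7 members that fell at C12-70min over control C12 under every solution, where 40.2% of the 5662 genes fell, and no member rose under every solution, where 16.7% of genes did. The same 2 fell after 30 minutes of arrest, where 23.3% of genes fell and 1.08% rose, and after 50 minutes, where 34.5% fell and 7.08% rose. In control C14L over control C12, Cks30A rose, where 27.2% of genes did, and twe fell, where 26.8% did. At C12-70min over control C14L, twe tested higher, where 10.8% of genes did, and stg and Cks30A tested lower, where 36.3% did. In the fit without the libraries labelled C12-15min, over 5764 genes, Z600 also rose at C12-70min over control C12 under every solution, where 20.2% of genes did, and stg and Myt1 fell, where 44.8% did. The same 2 fell in this fit after 30 minutes, where 33.4% of genes fell and 3.45% rose, and after 50 minutes, where 40.3% fell and 10.2% rose. In control C14L over control C12, Cks30A rose, where 32.1% did, and twe and Myt1 fell, where 29.9% did. At C12-70min over control C14L, twe tested higher, where 12.6% did, and stg, Myt1 and Cks30A tested lower, where 44.0% did. None of the 7 passed in the libraries labelled C12-15min, where limma called 0 of 5662 genes and 13 had an unadjusted p below 0.05.

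The members differed widely in their range over the 8 conditions. twe spanned 7.13, Z600 6.56, stg 5.90, Myt1 3.60, trbl 3.35, Cks30A 1.99 and Cdk1 0.46 on the log2 scale, where the median gene that reached 10 CPM in 1 condition or more spanned 2.33. twe ranged more widely than 98.7% of these genes, Z600 than 97.9% and stg than 96.0%. Per kb of exon, Cdk1 was at 289 to 397 CPM per kb in all conditions and was the most abundant member in every condition except control C14E, where Z600 reached 1575 CPM per kb.

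**Figure D4:**
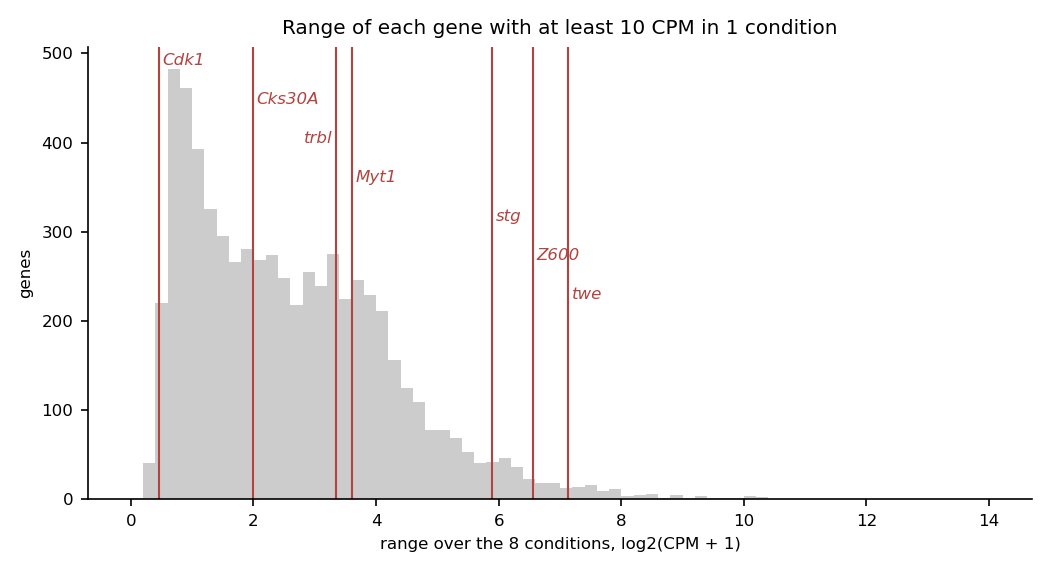
Histogram of the range over the 8 condition means, in log2 of CPM plus 1, for 6437 genes that reached 10 CPM in any condition. Red lines mark the 7 members. Cdk1 (0.46) lies at the low end, Cks30A (1.99) near the median of 2.33, and stg (5.90), Z600 (6.56) and twe (7.13) in the upper tail.

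Some of these courses are set beside signs of how far each embryo had developed, because the embryos of a condition differed in them. The median gap between both embryos over 5662 genes was 0.69 on the log2 scale in the libraries labelled C12-15min and 0.54, 0.46 and 0.30 after 30, 50 and 70 minutes of arrest, against 0.31 in control C12 and 0.22 in control C14L. In the libraries labelled C12-15min, embryo B had less stg (119 CPM, against 315 in A), Myt1 (9.53 against 56.3) and Cks30A (27.8 against 64.9), and more trbl (128 against 78.5) and Z600 (112 against 1.38). The gap of Z600, 5.58, was the 2nd largest of 5662 genes there. Embryo B also had less of the maternal mRNA osk (16.5 CPM, against 264 in A) and more of the zygotic blastoderm mRNAs nullo (167 against 28.8) and halo (362 against 5.48). The maternal mRNAs bcd (326 against 317) and nos (105 against 109) were alike. At C12-30min, embryo A had less stg (11.5 against 74.7 CPM) and bcd (129 against 301), more of the maternal nos (86.6 against 43.0), close to as much osk, and more trbl (169 against 32.7), Z600 (106 against 13.7) and halo (594 against 131). The control C12 pair differed as well. There embryo A had less osk (70.3 against 136 CPM) and more nullo (53.2 against 32.2), halo (50.1 against 6.05) and Z600 (11.6 against 1.61). It also had less trbl (47.9 against 88.6) and more stg (379 against 303), and bcd was alike (332 against 329). The part of embryo age in these gaps was not tested.

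**Figure D5:**
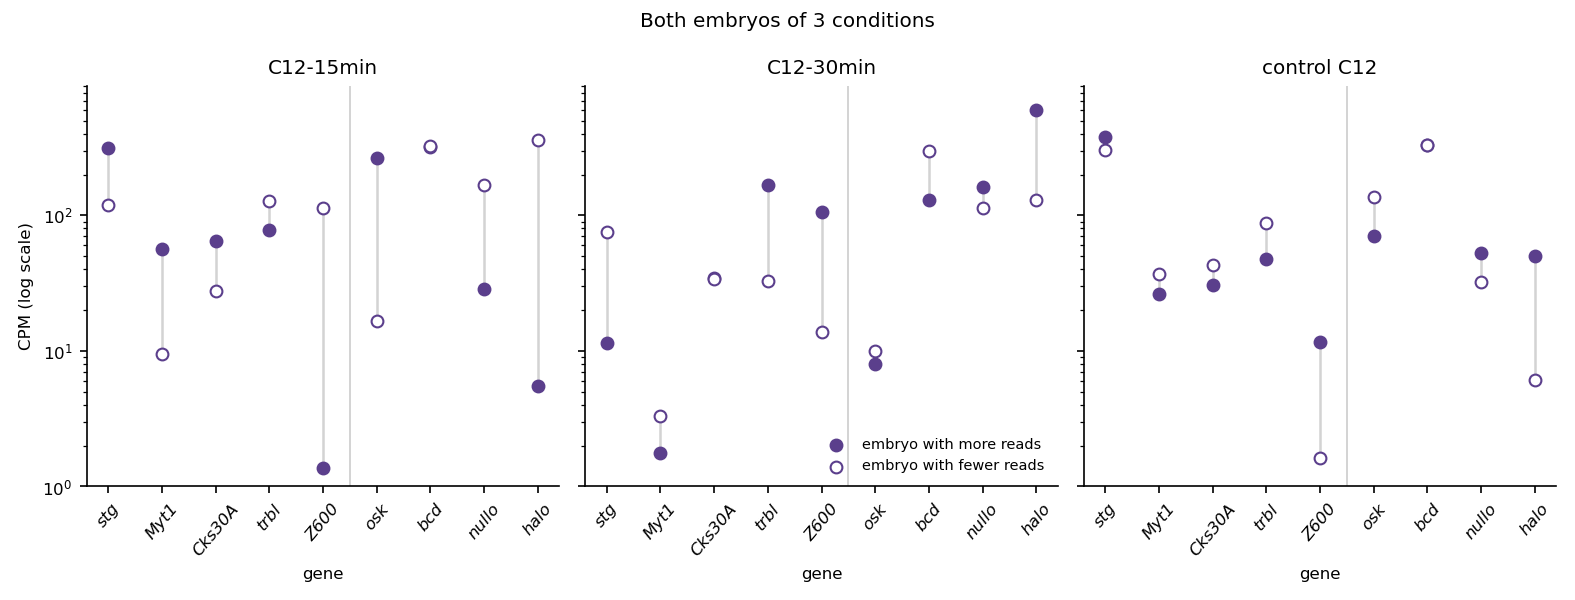
CPM on a log axis of 5 members and 4 developmental marker mRNAs (right of the gray line in each panel) in both embryos of the libraries labelled C12-15min, of C12-30min and of control C12. Filled circles are the embryo with more assigned reads and open circles the other. The embryos labelled C12-15min have 1.38 and 112 CPM of Z600 and 264 and 16.5 CPM of osk, while their bcd levels lie close together (317 and 326 CPM).

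Across conditions the marker mRNAs moved as follows. The summed level of 4 maternal mRNAs (bcd, nos, osk and smg) was 376 CPM at C12-70min, against 121 CPM in control C14L and 3611 CPM in control C12. That of 5 blastoderm mRNAs was 5967 CPM at C12-70min, against 32.9 CPM in control C14L, 7851 in control C14E and 599 in control C12, with Sry-alpha listed at 0 in all 8 conditions. That of 2 mesoderm mRNAs (twi and sna) was 252 CPM at C12-70min, against 469.5 CPM in control C14L, 514 in control C14E and 22.6 in control C12. The summed level of 5 follicle cell mRNAs, which a laid egg lacks, was at most 2.63 CPM and that of 3 yolk protein mRNAs at most 2.15 CPM.

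The other genes acting on Cdk1 were mostly lower than in control C12, both at C12-70min and in control C14E. Of a list of 21, 20 were in the table and 17 remained without the targeted cyclins. At C12-70min over control C12, 13 of these 17 were lower, where 18.6% of all 17735 genes were, and 2 were higher, where 16.8% were. In control C14E over control C12, 13 were lower, where 16.6% of all genes were, and 2 were higher, where 11.7% were. In control C14L over control C12, 10 were lower, where 16% of all genes were, and 2 were higher, where 19.5% were. At C12-70min over control C14E, 4 were lower, where 10.7% of all genes were, and 0 were higher, where 7.5% were. Many of all genes are near 0 CPM and cannot pass the fold downward. Among the 5780 genes that reached 10 CPM at C12-70min or in control C12, the median was -0.63, itself past the fold (0.585 on the log2 scale). Wee1, the nuclear counterpart of Myt1, was at 56.9 CPM at C12-70min, against 33.5 CPM in control C14L and 167 CPM in control C12. The checkpoint kinases grp and lok were at 54.6 and 31.7 CPM at C12-70min, against 364 and 413 CPM in control C12. The checkpoint gene mus304 was at 5.98 CPM at C12-70min, against 80.8 in control C12, and Claspin was at 18.9 CPM, against 180 in control C14L and 67.3 in control C12. mei-41, the ATR kinase, was at 4.79 CPM at C12-70min and 38.4 CPM in control C14L, against 1.80 in control C12. In control C14E, Wee1, grp and lok were at 60.4, 47.4 and 85.8 CPM, and mus304, Claspin and mei-41 at 6.87, 20.1 and 5.30 CPM.

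The 3 parts of the Cdk-activating kinase, Cdk7, CycH and Mat1, were lower at C12-70min than in control C12. Mat1 was at 5.02 CPM at C12-70min, against 37.1 CPM in control C14L and 38.1 CPM in control C12, and CycH was at 12.7 CPM, against 35.2 and 59.2 CPM in these controls. Cdk7 was at 39.5 CPM at C12-70min, against 19.9 CPM in control C14L and 97.5 CPM in control C12. Cks85A, the other Cks gene, was at 3.61 CPM at C12-70min, against 6.46 CPM in control C14L and 14.9 CPM in control C12, so the Cks genes differed in direction between control C14L and control C12. In control C14E, Mat1, CycH, Cdk7 and Cks85A were at 3.53, 15.6, 51.6 and 7.49 CPM. Among genes of the opposing phosphatase, the regulatory subunit tws was at 9.88 CPM at C12-70min, against 44.6 CPM in control C14L and 441 CPM in control C12. Its antagonists gwl and endos were at 37.4 and 18.2 CPM at C12-70min, against 359 and 128 CPM in control C12, and its scaffold Pp2A-29B was higher, at 883 CPM, against 519 CPM. In control C14E, tws, gwl, endos and Pp2A-29B were at 38.3, 53.8, 42.2 and 789 CPM. Over the 17 of these genes that are not cyclins, the median over control C12 was -1.78 on the log2 scale at C12-70min and -0.82 in control C14L, against -0.63 and -0.19 over all genes that reached 10 CPM. In control C14E over control C12, the median of the 17 was -1.58, against -0.35 over all such genes. At C12-70min over control C14E, it was -0.19, against -0.10.

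The genes with the most similar course to each member were found by Pearson correlation of the log2 values over the 8 conditions, among 6436 other genes that reached 10 CPM in any condition. The points share the libraries behind each mean. stg was most like CG11454, tai and ZnT63C (each 0.98), although CG11454 had a rank correlation of 0.79. twe was most like CG3045 (0.999), tor (0.999) and qm (0.998), and tor, a maternal receptor kinase, was at 114 CPM at C12-70min, against 1.88 CPM in control C14L. trbl was most like Gpo1 (0.99), CG34155 (0.95) and smo (0.95). Z600 had the least close neighbors, CG34214 (0.89), gt (0.87) and CG43725 (0.86). Myt1 was most like CG10462, CG1812 and CG9003 (r of at least 0.994), all of them highest in control C12. Cdk1 was most like RpS2 (0.98), CG8009 (0.96) and mts (0.96). Cks30A was most like mh (0.99), mei-41 (0.99) and CG5721 (0.99), which like it were highest in control C14L. Between members, the highest r was 0.82 for stg with Myt1, and the lowest were -0.93 for twe with Cks30A and -0.92 for Myt1 with Cdk1.

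Over control C13, trbl was called higher at C12-30min, where 6.23% of all genes were, and stg and Myt1 lower, where 13.1% were. C12-30min embryo B, at 32.7 CPM of trbl, lay below the control C13 mean of 55.9 CPM, so the trbl call rests on embryo A. Leaving out embryos was not tried for this comparison. At C12-50min over control C14E, stg and twe were the 2 members called higher, where 7.71% of all genes were, and trbl, Z600 and Myt1 the 3 called lower, where 12.7% were. At C12-70min over control C14E the calls were the same, where 7.5% of all genes were higher and 10.7% lower. At C12-70min over control C14L, twe and Z600 were the 2 called higher, where 12% of all genes were, and stg, Myt1 and Cks30A the 3 called lower, where 21.4% were. In the controls themselves, stg, Myt1 and Cks30A were called higher in C14L than in C14E, where 20% of all genes were, and twe, trbl and Z600 lower, where 9.16% were. The largest of these were Z600 at -5.37, stg at 5.32 and twe at -5.00 on the log2 scale. From C12-50min to C12-70min, the step that comes latest in the arrest, trbl and Z600 were called higher at 70 minutes, where 11.6% of all genes were, and twe lower, where 6.77% were, and stg differed by 0.04 on the log2 scale. None of these 3 members passed limma under every solution in that step, where 1.10% of genes rose and 1.94% fell, or 1.65% and 2.29% without the libraries labelled C12-15min.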

How the data were processed

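Polyadenylated RNA of 19 single embryos was sequenced. Per the labels and the study's methods, reads were trimmed with Trim Galore 0.6.0, aligned to dm6 (BDGP6) with STAR 2.5.3a and counted on genes with featureCounts of Subread 1.6.0, with CPM from DESeq2. The annotation release and the strand setting of the counting are not given in the sources used here. For each of 17735 genes, the authors deposited a log2 value per condition, made by averaging CPM over embryos and adding 1. No column belongs to a single embryo.

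Differences between condition means were taken as deposited (pseudocount 1), with a fold change above 1.5 as the call (Python 3.11.15, numpy 2.4.6, pandas 2.3.3). The smallest spacing between values of a column gave the number of assigned reads of each library, from which the whole reads of both embryos were worked out for values up to 2000 CPM. At C12-70min, 64.8% of the genes that reached 10 CPM had exactly 1 solution, and in the other 5 conditions 89.2% to 93.0% had. Reads of a pair were counted singly, so counts are not independent molecules and no counting interval is given. limma 3.58.1 (R 4.3.3, trend, 12 embryos, mean of at least 1 CPM, 6 residual degrees of freedom) was fitted to log2 CPM plus 1 of 5662 solved genes. For members with several solutions, each combination of solutions was added to the same fit as a row of its own (20 rows). The scripts were first tested on simulated data with known answers.

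Positions and exonic lengths were looked up in the Ensembl 115 release for BDGP6, which holds 99.4% of the listed genes. The genes named are the 7 members, the targeted cyclins, the listed Cdk1 regulators past the fold in C12-70min or control C14L over control C12 that reached 10 CPM in any condition, and for each member the 3 genes of highest correlation. Marker genes come from fixed lists, the single ones shown were picked after their values were seen, and EndoGI, gdl and gdl-ORF39 are named because they overlap members. The members and lists were chosen with earlier results of these data known. Alternatives were other pseudocounts, a filter on low values, centring, a 2-fold call, leaving out each embryo, and the limma fits. The fit without the libraries labelled C12-15min and the counts without each embryo were added after the data had been seen. All 8 value columns of the deposited table were used, and figures were drawn with matplotlib 3.10.9.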

Additional observations from a re-analysis of the deposited data

How the results depend on the processing

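Of 535 values of a member's difference under an alternative, 479 moved by less than the gene's SD between embryos, 55 moved by more without a reversal of a called difference, and 1 reversed: with single embryos left out, Z600 in the libraries labelled C12-15min ranged from -1.68, without embryo B, to 4.47 over control C12 on the log2 scale. The 479 is no measure of stability. The SD was wide for Z600 (2.16), stg (0.92) and trbl (0.84), so a move inside it could still end a call. The filter of 1 CPM drops genes without changing a value, so a member's difference could not move under it. The counts of called members were within 1.5 times under both other pseudocounts and the filter of 1 CPM in all 9 comparisons. Centring on the median of 3737 genes that reach 10 CPM in all 8 conditions, and likewise a 2-fold call, left 1 member higher in the libraries labelled C12-15min over control C12, and the 2-fold call left 0 lower. Leaving out each embryo in turn gave 1 to 3 members higher and 0 to 2 lower in these libraries, 1 to 2 higher and 2 to 3 lower at C12-30min, 1 to 2 higher and 2 lower at C12-50min, 2 to 3 higher and 2 to 3 lower at C12-70min and in control C14L over control C12, and 2 higher and 3 lower at C12-70min over control C14L. The centring shift was -0.29 for control C14L, 0.12 for C12-30min and C12-50min and -0.13 for C12-70min over control C12, and 0.12 for C12-50min over control C14E. No direction of a called member turned with it. The counts over all genes moved more. At C12-15min, C12-30min, C12-50min and C12-70min over control C12, 490, 1240, 2033 and 2975 genes were higher, which became 1690, 2820, 4461 and 5666 with a pseudocount of 0.1, 2645, 4305, 6084 and 7193 with 0.001, and 221, 534, 871 and 1619 at 2-fold. In control C13, C14E and C14L over control C12, 734, 2068 and 3451 were higher, which became 1566, 3923 and 5601 with 0.1 and 2832, 5604 and 6853 with 0.001, and 188 and 1225 in C13 and C14E at 2-fold. For C12-50min over control C14E and C12-70min over control C14L, 1367 and 2124 were higher, which became 2940 and 3769 with 0.1, 4240 and 5028 with 0.001, and 603 and 1282 at 2-fold. Of the counts of lower genes, those at C12-15min (133) became 542, 1299 and 14 under these 3 settings, those in control C13 (1945) became 3317 with 0.001 and 937 at 2-fold, and those of C12-50min over control C14E (2247) became 4296 and 1479. Rank correlation moved 3 of 21 likenesses by 0.1 or more, those of CG11454 to stg (0.79), gt to Z600 (0.69) and CG8009 to Cdk1 (0.83). No paired analysis was possible because the columns carry no replicate numbers. Control C13 and C14E were not solved, so leaving out an embryo gave no value there. With 2 embryos per condition the tests rest on a spread pooled over 6 conditions.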
